A study of Saccharomyces cerevisiae with 12 samples.

Results

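The comparison described here is that of 12 °C with 30 °C in nitrogen-limited cultures of the baker's yeast Saccharomyces cerevisiae. It takes the 6 of 12 Affymetrix arrays whose sample titles name nitrogen limitation, 3 from 12 °C and 3 from 30 °C. Each of these 6 cultures was the prototrophic haploid strain CEN.PK113-7D of mating type a, grown without oxygen in a defined synthetic medium in which nitrogen limited growth and all other nutrients were in excess. The cultures were chemostats, stirred vessels with constant inflow and outflow, in which the dilution rate of 0.03 per hour fixed growth at both temperatures. The other 6 arrays came from carbon-limited cultures of the same strain at the same temperatures and dilution rate. They serve here to set the response under nitrogen limitation against that under carbon limitation. The replicates of a group were grown separately, and the strain and dilution rate did not vary, so nothing here extends to other strains or growth rates.

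Yeast in the cold faces slower enzymes, stiffer membranes and RNA that folds on itself more readily, and it is known to adjust its ribosome production, lipid desaturation and cell wall. When nitrogen is scarce, the GATA factors Gln3 and Gat1 switch on genes that take up and break down poor nitrogen sources, which a good nitrogen supply holds down. The growth controller TORC1 senses nitrogen and in turn sets ribosome synthesis, permease turnover and autophagy. The account below goes past the largest changes to the modest changes, to the genes that stayed level and to the pathways that carry out gene expression, secretion, cell division, nucleotide synthesis and nutrient sensing.

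Signals are in the scanner software's linear units. Values under a floor of 12 were set to 12 before log2 was taken, and a gene was called changed at an adjusted p under 0.05 over the 5400 genes tested. The a-cell receptor gene STE2 averaged 674 ± 61.7 at 12 °C and 469 ± 17.3 at 30 °C. The anaerobic cell wall gene DAN1 averaged 3959.5 ± 536 and 3735 ± 259 (SD, n = 3 each), so markers of the labelled mating type and of anaerobic growth were present. Of other anaerobic markers TIR3, TIR4, ANB1 and COX5B were called lower at 12 °C, with log2 changes of -0.95, -0.72, -0.47 and -1.30. TIR1, HEM13 and AAC3 were not called. Of aerobic markers CYC1 was called higher, by 1.75, and COX5A and CTA1 were not called. GAP1, the general amino acid permease that nitrogen shortage induces, averaged 229.7 ± 2.37 at 12 °C and 3504 ± 391 at 30 °C under nitrogen limitation. Under carbon limitation it averaged 141 ± 30.4 at 12 °C and 79.2 ± 8.05 at 30 °C. Replicate 1 at 12 °C stood apart: 409 genes differed from the mean of its 2 fellow replicates by over 2-fold, against 15 to 117 on the other 5 arrays. Without it 2045 genes were called, against 2063 with it, but only 1754 of the 2063 were among them. Some list counts given below moved without it.

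At 12 °C 857 of 5400 genes rose (15.9%) and 1206 fell (22.3%), 38.2% in all. Most of these changes were modest. Of the called genes, 464 rose and 585 fell by 1.5- to 2-fold, and 105 rose and 97 fell by less than 1.5-fold. Over 4-fold, 37 rose and 73 fell. The change of the median gene was -0.10 on the log2 scale, and the 5th and 95th percentiles were -1.31 and 1.03. For 48.9% of the genes the signals of the 3 arrays at 12 °C and the 3 at 30 °C did not overlap, with 12 °C above in 20.3% and below in 28.5% (under carbon limitation 42.7% did not overlap). The split between directions depends on the scale: 1053 genes rose and 960 fell under quantile normalization, and 1139 rose and 908 fell under median scaling, which shifted the median gene by 0.14 in each case. Directions below are relative to the common array level of the deposited signals.

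**Figure D1:**
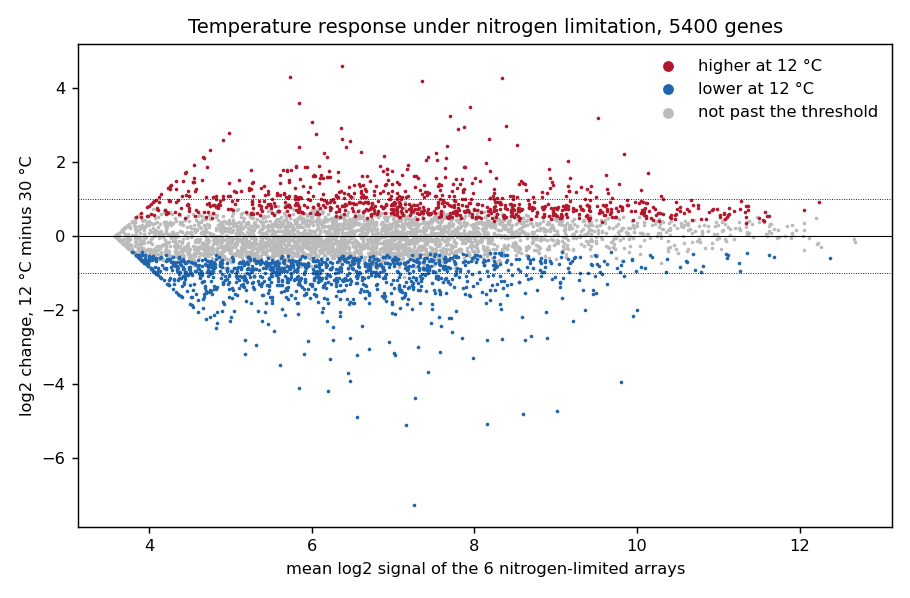
Each point is 1 of 5400 genes under nitrogen limitation, with its mean log2 signal over the 6 arrays (x axis) and its log2 change, 12 °C minus 30 °C (y axis); dotted lines mark 2-fold. The 857 higher and 1206 lower genes lie mostly within 2-fold, and the wedge at the left is the floor of 12 signal units.

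The direction of the calls went with the level of the gene. Ranked by mean signal and cut into 10 bins of 540 genes, 33.9% of the brightest bin rose at 12 °C and 10.7% fell. Of the dimmest bin 6.11% rose and 25.6% fell. Signals of dim genes near the floor give compressed changes, and the median SD between replicates was larger at 12 °C (0.23 to 0.33 on the log2 scale over the bins) than at 30 °C (0.14 to 0.21).

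The direction also went with gene length, taken from the R64 gene table. Of the 1056 shortest protein-coding genes (78 to 681 bp) 22.9% rose and 14.0% fell at 12 °C. Of the 1051 longest (2133 to 14733 bp) 6.28% rose and 36.4% fell. The median log2 change was 0.11 among these shortest genes and -0.42 among these longest. Under carbon limitation the same bins had medians of 0.05 and -0.02. The trend was present within 3 bins of genes by signal: among the brightest bin, 29.2% of 818 short and 17.8% of 359 long genes rose, and 10.4% of the short and 28.1% of the long genes fell. Taken array by array, the median deviation (log2, from each gene's mean over 12 arrays) of the longest bin minus that of the shortest was -0.05, -0.31 and -0.20 at 12 °C. At 30 °C it was 0.50, 0.33 and 0.19. On the carbon-limited arrays it lay between -0.15 and -0.01, so the 3 nitrogen-limited arrays at 30 °C stood above all 9 others. The contrast averaged -0.19 ± 0.13 at 12 °C and 0.34 ± 0.16 at 30 °C (SD, n = 3 each; exact two-sided permutation p = 0.1, the smallest that 3 against 3 allows). Under carbon limitation the contrast averaged -0.11 ± 0.03 at 12 °C and -0.03 ± 0.03 at 30 °C, and the same permutation test also gave p = 0.1. The ratio of 3' to 5' signal is a measure of RNA integrity and labelling. Under nitrogen limitation it was 1.55 ± 0.22 at 12 °C and 1.82 ± 0.11 at 30 °C for ACT1, and 2.53 ± 0.54 and 3.13 ± 0.11 for TBP (SD, n = 3 each). Under carbon limitation it was 1.53 ± 0.38 and 1.82 ± 0.11 for ACT1, and 3.55 ± 0.54 and 2.94 ± 0.38 for TBP. For YER022W, a further control gene, it was 2.13 ± 0.25 at 12 °C and 2.84 ± 0.74 at 30 °C under nitrogen limitation. Its ratio under carbon limitation was 3.19 ± 0.60 at 12 °C and 2.88 ± 0.38 at 30 °C. The part of RNA quality in the length trend was not tested. Some list counts given below moved when the trend on length was removed.

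**Figure D2:**
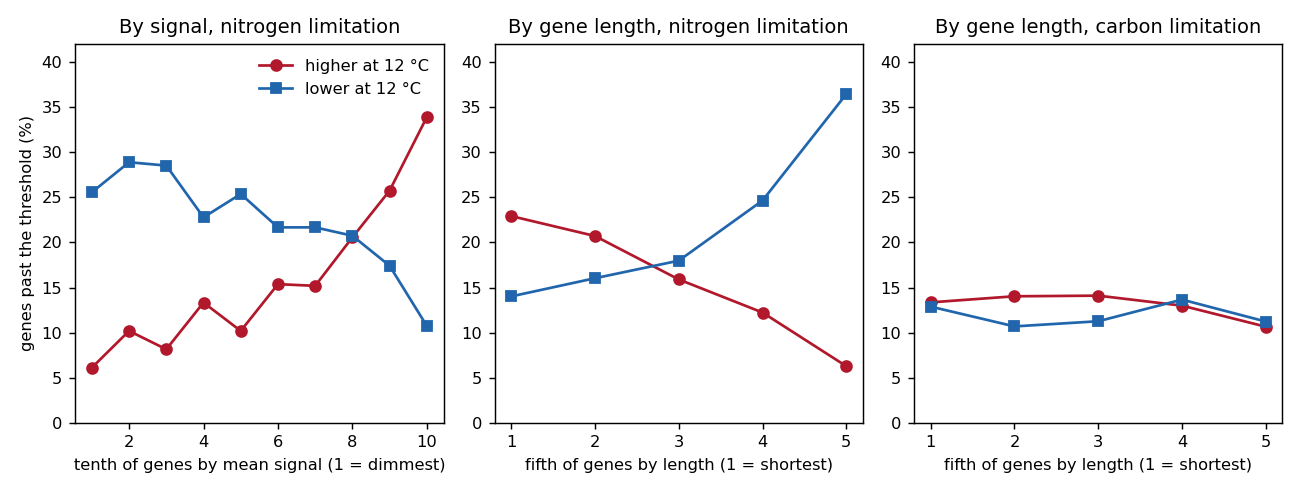
Percent of genes past the threshold by bin of mean signal (left, 10 bins) and by bin of gene length (5 bins) under nitrogen limitation (middle) and carbon limitation (right); circles are higher and squares lower at 12 °C. Under nitrogen limitation 36.4% of the longest bin fell and 22.9% of the shortest bin rose, and the carbon panel has no such slope.

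Small nucleolar RNAs, which guide the chemical modification of ribosomal RNA, were more often higher than lower. Of 40 tested 20 rose, 3 fell and 17 did not pass, with a median log2 change of 0.76. SNR67 read 1146, 559 and 545 on the 12 °C arrays, against 77.1, 30.4 and 24.1 on the 30 °C arrays. SNR70 read 1138, 803 and 699 on the 12 °C arrays, against 149, 159 and 164 on the 30 °C arrays. For both, all 3 arrays at 12 °C lay above all 3 at 30 °C, with log2 changes of 4.20 ± 0.43 and 2.45 ± 0.19 (SE; adjusted p = 2.36e-06 and 1.6e-07). SNR41, SNR44 and SNR77 rose by 2.62, 2.42 and 2.28, and SNR76, at the floor on each of the 3 arrays at 30 °C, was at least 5.00-fold higher. The 3 that fell, named after their values were seen, were SNR4 (-1.40), SNR45 (-1.39) and SNR63 (-1.28). For SNR45 and SNR63, 2 of the 3 arrays at 12 °C lay at or under the floor, so the size of these changes is set in part by it.

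Other small RNAs went the other way. Of 83 tested tRNA genes 46 fell, 15 rose and 22 did not pass (median -0.75). These are 55.4% lower, against 22.3% of all genes, and 18.1% higher, near the 15.9% of all genes. All of the 83 but YNCG0028W and TRR4 were read from probe sets that share probes with other sequences, so the 83 are not separate readings. Neither YNCG0028W nor TRR4 passed (log2 changes of -0.50 and -0.30). SUF1, a glycine tRNA whose probe set shares probes with other sequences, read 5.00, 8.80 and 12.0 on the 12 °C arrays, against 98.3, 116 and 112 on the 30 °C arrays and was at least 9.06-fold lower at 12 °C. Of 4 spliceosomal snRNAs 3 fell, chosen after their values were seen. SNR7-L, whose probe set also shares probes, was at the floor on each of the 3 arrays at 12 °C and was at least 5.57-fold lower. SNR14 fell by 1.81 and SNR6 fell by 1.40 on the log2 scale. The RNase P RNA RPR1, which matures tRNAs, read 16.4, 9.20 and 14.0 on the 12 °C arrays, against 48.4, 61.1 and 64.8 on the 30 °C arrays and fell by 2.04. The RNA was labelled from a polyA fraction per the labels, so these RNAs were read only as far as they entered it, and how their share in it differed between the cultures was not tested.

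Below the 10 largest rises came nucleotide, ribosome assembly and RNA-binding genes. IMD4, an IMP dehydrogenase at the entry to guanine nucleotide synthesis, read 708, 592 and 534 on the 12 °C arrays, against 98.4, 81.6 and 67.2 on the 30 °C arrays. Its groups were far apart, and it rose 7.46-fold (log2 2.90 ± 0.27 SE, adjusted p = 7.15e-07). DBP2, a DEAD-box RNA helicase, read 818, 785 and 578 on the 12 °C arrays, against 129, 108 and 115 on the 30 °C arrays and rose 6.14-fold (adjusted p = 4.24e-08). NOG2, a GTPase that releases the large ribosomal subunit for export, read 397, 529 and 506 on the 12 °C arrays, against 67.4, 106 and 91.1 on the 30 °C arrays and rose 5.47-fold (adjusted p = 1.66e-07). HMT1, the arginine methyltransferase of nuclear RNA-binding proteins, read 416, 404 and 384 on the 12 °C arrays, against 71.4, 90.0 and 93.0 on the 30 °C arrays. The 12 °C arrays of all 3 lay above every 30 °C array, and HMT1 rose 4.77-fold (adjusted p = 1.11e-06). SFK1, a plasma membrane protein of phosphoinositide signalling, and RKI1, the ribose-5-phosphate isomerase that feeds nucleotide synthesis, rose 6.74- and 5.32-fold.

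Genes of mating also stood in this range. ASG7, expressed in a cells, read 257, 177 and 220.0 on the 12 °C arrays, against 34.8, 32.5 and 43.0 on the 30 °C arrays and rose 5.91-fold (adjusted p = 1.71e-07). FIG2, a wall adhesin of mating cells, rose 4.76-fold. MF(ALPHA)2, which encodes an alpha-factor pheromone, read 151, 53.6 and 69.5 on the 12 °C arrays, against 9.20, 7.60 and 9.30 on the 30 °C arrays, at the floor on each of the 3 arrays at 30 °C, and was at least 6.88-fold higher at 12 °C. Replicate 1 gave the highest of the 3 readings of each of these genes at 12 °C, and the groups did not overlap. Genes that mark alpha cells, which a cells hold silent, were all 4 higher at 12 °C: MF(ALPHA)1 averaged 2232 ± 348 at 12 °C and 252 ± 75.9 at 30 °C, SAG1 348 ± 158 and 162 ± 5.00, and STE3 74.5 ± 11.9 and 42.5 ± 11.2 (SD, n = 3 each). Among a-cell markers STE2 and AGA2 also rose, by 0.52 and 0.78 on the log2 scale. STE6, MFA1, MFA2 and BAR1 did not pass, with log2 changes of -0.20, 0.06, -0.01 and -0.29. These markers were looked at after their values were seen, and their part in the readings of the mating genes was not tested.

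Below the 10 largest falls came uptake and storage genes. PUT4, the proline permease, read 22.4, 23.8 and 22.3 on the 12 °C arrays, against 361, 321 and 356 on the 30 °C arrays and fell 15.1-fold (log2 -3.92 ± 0.26 SE, adjusted p = 2.65e-08). DUR3, the urea permease, read 51.3, 36.6 and 43.2 on the 12 °C arrays, against 393, 409 and 348 on the 30 °C arrays and fell 8.84-fold (adjusted p = 1.45e-07). PHO84, the high-affinity phosphate transporter, read 25.3, 28.3 and 18.3 on the 12 °C arrays, against 265, 227 and 218 on the 30 °C arrays and had a log2 change of -3.32 ± 0.23 (SE). In each of the 3 every 12 °C array lay below every 30 °C array. SUL1, a sulfate permease, fell 8.30-fold and HXT5, a hexose transporter of slow growth, fell 11.1-fold, so transporters of nitrogen, phosphorus, sulfur and carbon sources were all among these falls.

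Other falls in this range were in catabolism and stress. MLS1, the malate synthase of the glyoxylate cycle, read 32.3, 37.7 and 63.3 on the 12 °C arrays, against 343, 502 and 360.1 on the 30 °C arrays and fell 9.30-fold (adjusted p = 1.71e-07). CPS1, the vacuolar carboxypeptidase S, read 16.4, 12.6 and 38.4 on the 12 °C arrays, against 294, 209.7 and 95.4 on the 30 °C arrays and fell 9.05-fold (adjusted p = 2.08e-05). Its 30 °C arrays were widely spread, yet the lowest lay above every 12 °C array. TMA10 and ROQ1, a stress-induced regulator of the ubiquitin ligase Ubr1, fell 9.75- and 9.25-fold. HSP30, a stress-induced membrane protein that damps the plasma membrane proton pump, fell 7.87-fold. SPG4, RTS3 and the spore wall precursor transporter DTR1 fell 13.0-, 8.80- and 7.70-fold.

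Among the rises of 1.5- to 2-fold with the lowest adjusted p were housekeeping genes. TOM6, a small subunit of the mitochondrial import pore, read 1983, 2112 and 1813 on the 12 °C arrays, against 987, 1023 and 1098 on the 30 °C arrays and rose 1.90-fold (adjusted p = 7.01e-05). WRS1, the tryptophanyl-tRNA synthetase, read 663, 654 and 634 on the 12 °C arrays, against 334, 359 and 372 on the 30 °C arrays and rose 1.83-fold (adjusted p = 0.000292). The spread within each group was a small part of the gap for both. HXK2, the main hexokinase on glucose, the cell wall mannoprotein gene CWP2 and OST1, a subunit of oligosaccharyltransferase, rose 1.94-, 1.78- and 1.74-fold. Among the falls of this size, TIR3, an anaerobic cell wall mannoprotein, read 1729, 1898 and 1712 on the 12 °C arrays, against 3333, 3137 and 3861 on the 30 °C arrays and fell 1.93-fold (adjusted p = 8.42e-05). PRY1, a secreted sterol-binding protein, and ENT5, an adaptor of traffic between Golgi and endosomes, fell 1.88- and 1.98-fold. ARO10, a decarboxylase of the Ehrlich pathway of amino acid breakdown, was at the floor on each of the 3 arrays at 12 °C and was at least 1.99-fold lower.

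**Figure D3:**
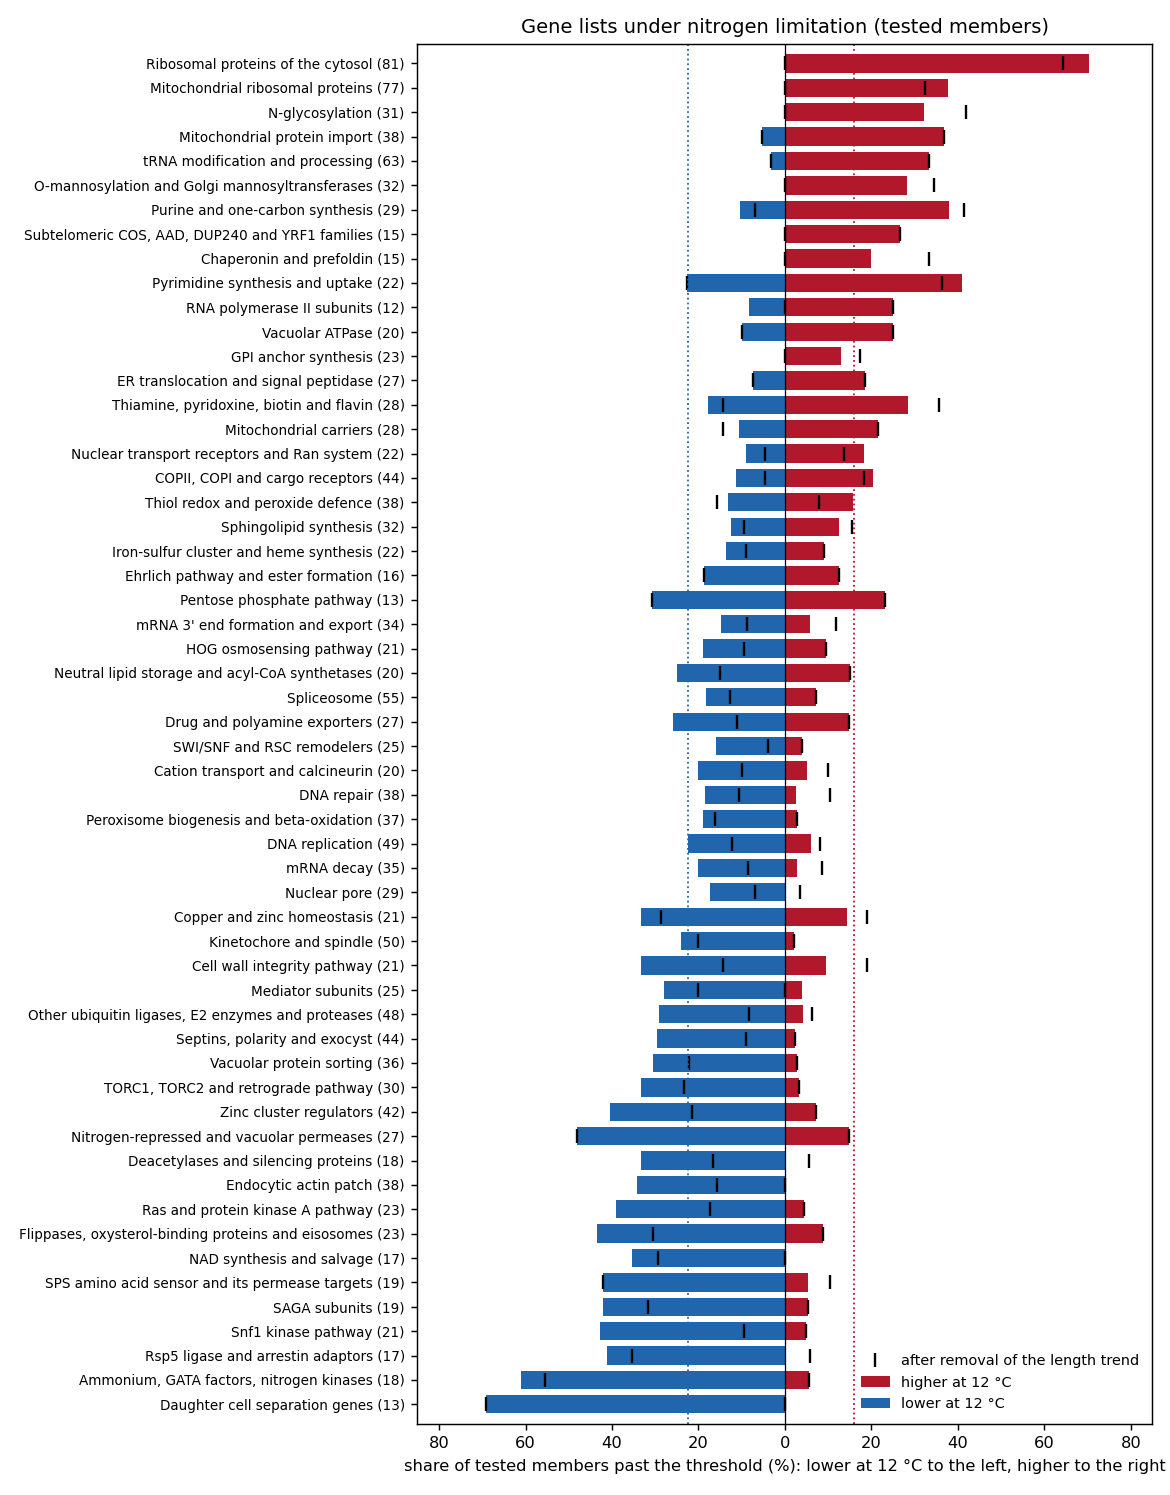
Share of tested members past the threshold in each of 56 gene lists under nitrogen limitation (number tested in brackets), lower at 12 °C to the left and higher to the right. Dotted lines are the shares of all genes (22.3% and 15.9%), and black ticks are the shares with the length trend removed. Cytosolic ribosomal proteins lie at the top, with 57 of 81 higher, and daughter cell separation genes at the bottom, with 9 of 13 lower.

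Genes of ribosomes and tRNA modification were more often higher than lower at 12 °C. Lists of transcription, chromatin and mRNA differed among themselves, and several lay near the 22.3% of all genes that fell. Of 81 tested cytosolic ribosomal protein genes 57 rose, 0 fell and 24 did not pass, with a median log2 change of 0.64 against -0.10 over all genes. Probe sets of 30 of the 81 share probes with other sequences. Of 63 genes of tRNA modification and processing 21 rose, 2 fell and 40 did not pass (median 0.30, also 17 higher and 3 lower under carbon limitation, where 25.7% of all genes were called). PUS7, a pseudouridine synthase, read 326, 396 and 414 on the 12 °C arrays, against 111, 101 and 105 on the 30 °C arrays and rose by 1.83 ± 0.16 on the log2 scale (SE; adjusted p = 5.37e-07). The tRNA methyltransferase subunit TRM11 rose by 1.59 and the pseudouridine synthase PUS4 by 1.35. Both had 12 °C arrays above all 30 °C arrays.

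Of 12 RNA polymerase II subunits 3 rose and 1 fell (median 0.44), and 5 rose without replicate 1 at 12 °C. Of 19 subunits of the coactivator complex SAGA 8 fell and 1 rose (median -0.53). SGF73 fell by 1.19, and SGF11, of the same deubiquitinating module, rose by 1.41. Without replicate 1 at 12 °C 5 fell. Of 25 Mediator subunits 7 fell and 1 rose, and 3, 3 and 2 fell without replicate 2 at 12 °C and without replicates 1 and 2 at 30 °C. MED7 fell by 1.15. Of 25 SWI/SNF and RSC remodeler subunits 4 fell and 1 rose, below the share of all genes, with 2 falling without replicate 1 at 12 °C or replicate 2 at 30 °C and 1 with the length trend removed. SNF2, the motor of the SWI/SNF remodeler, read 53.2, 81.6 and 69.1 on the 12 °C arrays, against 257, 214 and 245 on the 30 °C arrays and fell by 1.83 (adjusted p = 2.1e-05). Of 55 spliceosome genes 10 fell and 4 rose, a smaller share falling than over all genes, and 6 fell without replicate 1 at 12 °C. LEA1 and MUD1, of the U2 and U1 particles, fell by 1.40 and 1.34, and SNU13, which also binds box C/D snoRNAs, rose by 1.45. Of 35 genes of mRNA decay 7 fell and 1 rose, with 5 falling and 4 rising without replicate 1 at 12 °C, and 3 each way with the length trend removed. In 29 nuclear pore genes 5 fell and 0 rose, with 3 falling without replicate 2 at 30 °C, and 2 falling and 1 rising with the trend removed. The falling share of both lists was below that of all genes.

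Nuclear genes of the mitochondrial ribosome and import machinery were more often higher than lower at 12 °C in these anaerobic cultures. Of 77 mitochondrial ribosomal protein genes 29 rose, 0 fell and 48 did not pass (median 0.51). This count leans on single arrays: 45 rose without replicate 1 at 12 °C, and 17 and 18 without replicate 3 at 12 °C and replicate 1 at 30 °C. Under carbon limitation 6 rose and 4 fell (median 0.10). The tested difference between limitations was positive for 3 of the 77 genes, and for 2.91% of all genes. The median length of the list was 681 bp, and short genes rose more often under nitrogen limitation. MNP1, a protein of the mitochondrial large subunit, read 387, 385 and 367 on the 12 °C arrays, against 146, 161 and 204 on the 30 °C arrays and rose by 1.17 ± 0.19 (SE; adjusted p = 0.000194), with no overlap between the groups. MRPL20, of the same subunit, rose by 1.39.

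Of 38 genes of mitochondrial protein import 14 rose, 2 fell and 22 did not pass (median 0.36; 4 rose and 4 fell under carbon limitation). The tested difference between limitations was positive for 3 of the 38 genes, and the median length of the list was 661 bp. PAM18, a cochaperone of the import motor, read 350.0, 213 and 279 on the 12 °C arrays, against 89.2, 100.5 and 86.5 on the 30 °C arrays and rose by 1.58 ± 0.19 (SE; adjusted p = 1.51e-05). TIM8, a small chaperone of the intermembrane space, and TOM5 rose by 1.33 and 1.03. OXA1, which inserts proteins made inside mitochondria into the inner membrane, fell by 1.08. Of 28 mitochondrial carriers 6 rose and 3 fell, against 15.9% and 22.3% of all genes. DIC1, the dicarboxylate carrier, read 788, 1366 and 1258 on the 12 °C arrays, against 318, 511 and 508 on the 30 °C arrays and rose by 1.35, and AAC1, a minor ADP/ATP carrier of aerobic cells, fell by 1.04.

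In the secretory pathway more glycosylation genes rose than fell at 12 °C, and more genes of sorting and endocytosis fell than rose. Of 23 GPI anchor genes 3 rose and 0 fell, below the 15.9% of all genes that rose. Of 31 N-glycosylation genes 10 rose, 0 fell and 21 did not pass (median 0.36). ALG12, a mannosyltransferase of the lipid-linked sugar, read 177, 112 and 138 on the 12 °C arrays, against 55.7, 56.5 and 54.0 on the 30 °C arrays and rose by 1.34 ± 0.27 (SE; adjusted p = 0.0012). The oligosaccharyltransferase subunit OST2 rose by 1.00. Of 32 genes of O-mannosylation and Golgi mannosyltransferases 9 rose and 0 fell, and 5 rose without replicate 1 and again without replicate 3 at 30 °C. VRG4, the GDP-mannose transporter of the Golgi, read 1038, 639 and 792 on the 12 °C arrays, against 498, 383 and 371 on the 30 °C arrays and rose by 0.96.

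Of 44 genes of COPII and COPI coats and cargo receptors 9 rose and 5 fell, against 15.9% and 22.3% of all genes. Of these 44, 5 rose and 4 fell without replicate 3 at 12 °C, and 4 rose and 1 fell without replicate 2 at 30 °C. The number falling was 2, 2 and 3 without replicate 2 at 12 °C and replicates 1 and 3 at 30 °C, and 2 with the length trend removed. ERP2, a p24 cargo receptor, read 257, 171 and 208 on the 12 °C arrays, against 68.8, 80.4 and 68.4 on the 30 °C arrays and rose by 1.53 ± 0.19 (SE; adjusted p = 2.31e-05). The vacuolar proton pump was split, with 5 of 20 higher and 2 lower. Its assembly factor VMA21 rose by 1.38. Of 38 genes of the endocytic actin patch 13 fell and 0 rose (median -0.41), and 6 fell with the length trend removed. SLA1 and VRP1, which recruit actin assembly, fell by 1.29 and 1.49. Of 36 vacuolar protein sorting genes 11 fell and 1 rose, and 7 fell without replicate 2 at 30 °C, also 6 under quantile normalization. Of 17 genes of the ubiquitin ligase Rsp5 and its arrestin adaptors, which take permeases off the plasma membrane, 7 fell and 0 rose (median -0.42), and 6 fell and 1 rose with the length trend removed. ALY1, an adaptor of nutrient permeases, read 71.2, 59.8 and 79.9 on the 12 °C arrays, against 182, 211 and 138 on the 30 °C arrays and fell by 1.32 (adjusted p = 0.000214).

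Genes that daughter cells express to part from their mothers were lower at 12 °C. Of 13 tested 9 fell, 0 rose and 4 did not pass (median -0.96; 3 fell and 1 rose under carbon limitation). DSE3 read 14.1, 24.5 and 23.0 on the 12 °C arrays, against 59.8, 73.2 and 68.8 on the 30 °C arrays and fell by 1.75 (adjusted p = 2.14e-05). DSE4, a glucanase of the septum, read 98.2, 79.3 and 72.3 on the 12 °C arrays, against 218, 233 and 209.8 on the 30 °C arrays and fell by 1.42 (adjusted p = 2.53e-05). CTS1, the chitinase of cell separation, read 1468, 1298 and 1333 on the 12 °C arrays, against 2266, 2443 and 2392 on the 30 °C arrays and fell by 0.79 (adjusted p = 0.000183). The 12 °C arrays lay below all 30 °C arrays for the 3 genes, and ASH1, a repressor made in daughters, fell by 0.97. These are bulk samples, so fewer cells at a stage and less RNA per cell cannot be told apart.

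Of 50 kinetochore and spindle genes 12 fell and 1 rose, close to the 22.3% of all genes that fell, and 6 fell without replicate 3 at 30 °C. KIP2, a kinesin of astral microtubules, read 37.0, 38.5 and 42.9 on the 12 °C arrays, against 146, 123 and 145 on the 30 °C arrays and fell by 1.81 (adjusted p = 4.48e-06). KAR3, a minus-end kinesin, fell by 1.31. Of 49 DNA replication genes 11 fell and 3 rose, about the falling share of all genes, and 6 fell with the length trend removed. POL2, the catalytic subunit of DNA polymerase epsilon, fell by 1.45, a call lost when its probe sets were averaged, and RNR3, a ribonucleotide reductase subunit induced by DNA damage whose probe set shares probes, rose by 1.55. Of 44 genes of septins, polarity and the exocyst 13 fell and 1 rose. That count was 8, 8, 6, 8 and 7 without replicates 1 and 2 at 12 °C and 1, 2 and 3 at 30 °C, and 4 with the length trend removed. BUD3, which marks the axial bud site, read 43.3, 31.2 and 38.9 on the 12 °C arrays, against 91.0, 98.5 and 65.4 on the 30 °C arrays and fell by 1.16 (adjusted p = 0.000912).

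Nucleotide synthesis genes changed in both directions, more of them upward. Of 29 purine and one-carbon genes 11 rose, 3 fell and 15 did not pass (median 0.44; 3 rose and 3 fell under carbon limitation). Besides IMD4, IMD2, whose probe set shares probes with the other IMP dehydrogenases, read 2250.0, 2077 and 1693 on the 12 °C arrays, against 421, 504 and 360.1 on the 30 °C arrays and rose by 2.23. APT1, which salvages adenine, read 405, 309.7 and 336 on the 12 °C arrays, against 99.6, 146 and 104 on the 30 °C arrays and rose by 1.60 ± 0.21 (SE; adjusted p = 3.33e-05). ADE16, of the last steps to IMP, fell by 0.75. Of 22 pyrimidine genes 9 rose, 5 fell and 8 did not pass. URA7, a CTP synthase, read 574, 372 and 435 on the 12 °C arrays, against 125, 117 and 128 on the 30 °C arrays and rose by 1.88 ± 0.20 (SE; adjusted p = 4.62e-06). The uracil salvage enzyme FUR1 rose by 1.57. FUI1, the uridine permease, was at the floor on each of the 3 arrays at 12 °C and was at least 2.48-fold lower, a call lost with a floor of 50.

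Among cofactor genes the lists were mixed. Of 28 genes of thiamine, pyridoxine, biotin and flavin 8 rose, 5 fell and 15 did not pass, with 3 falling without replicate 3 at 12 °C or replicate 2 at 30 °C. BIO4 and BIO2, of biotin synthesis, rose by 1.64 and 1.38, and SNZ1, of pyridoxine synthesis, rose by 1.37. SNZ1 read 341, 259 and 311 on the 12 °C arrays, against 123, 126 and 103 on the 30 °C arrays. Of 17 NAD genes 6 fell and 0 rose, and 3 fell under median scaling. BNA5, of the kynurenine route to NAD, read 124, 101 and 90.1 on the 12 °C arrays, against 191, 292 and 231 on the 30 °C arrays and fell by 1.17 (adjusted p = 0.00625).

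Metal, lipid and redox genes changed in both directions. Of 21 copper and zinc genes 7 fell, 3 rose and 11 did not pass. CRS5, a copper metallothionein, read 71.5, 89.1 and 109.9 on the 12 °C arrays, against 538, 649 and 616 on the 30 °C arrays and fell by 2.75 (adjusted p = 1.66e-08). The copper-sensing activator CUP2 read 46.7, 41.0 and 53.6 on the 12 °C arrays, against 143, 161 and 196 on the 30 °C arrays and fell by 1.82 (adjusted p = 6.59e-06), and the copper pump of the Golgi, CCC2, fell by 1.64, a call lost with a floor of 50. The groups of CRS5 and CUP2 did not overlap. IZH1, a membrane protein that responds to zinc, read 1025, 1054 and 1032 on the 12 °C arrays, against 460.4, 415 and 479.9 on the 30 °C arrays and rose by 1.20.

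Of 23 genes of flippases, oxysterol-binding proteins and eisosomes 10 fell and 2 rose (median -0.46). HES1, an oxysterol-binding protein, read 44.7, 34.2 and 49.5 on the 12 °C arrays, against 239.6, 206 and 237 on the 30 °C arrays and fell by 2.42 (adjusted p = 3.38e-07). SEG1, an eisosome protein, fell by 1.45. ARE2, the sterol acyltransferase of lipid storage, was at the floor on each of the 3 arrays at 30 °C and was at least 4.44-fold higher at 12 °C, a call lost with a floor of 50. Of 38 thiol redox genes 6 rose and 5 fell, and 3 rose and 6 fell with the length trend removed. The rising share was about the 15.9% of all genes, and the falling share was below the 22.3% of all genes. Without replicate 2 at 12 °C and replicates 2 and 3 at 30 °C 2, 2 and 1 fell. GRX8, a glutaredoxin, read 140.5, 102 and 113 on the 12 °C arrays, against 30.3, 31.1 and 34.5 on the 30 °C arrays and rose by 1.88, and GRX1, another, fell by 0.98. Of 27 drug and polyamine exporters 7 fell and 4 rose, near the shares of all genes, with 4 falling without replicate 2 at 30 °C and 3 with the length trend removed. PDR11, which takes up sterols under anaerobiosis, read 83.3, 51.7 and 57.3 on the 12 °C arrays, against 382, 234 and 218 on the 30 °C arrays and fell by 2.10 (adjusted p = 2.85e-05). The 2 probe sets of AUS1, its partner in sterol uptake, were called in opposite directions, so no direction is given for it.

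More genes of nitrogen sensing and transport fell than rose at 12 °C. Of 18 genes of ammonium assimilation, GATA factors and nitrogen kinases 11 fell, 1 rose and 6 did not pass (median -0.92; 1 fell and 2 rose under carbon limitation). DAL80, a GATA repressor that the nitrogen activators themselves induce, read 43.6, 50.8 and 51.8 on the 12 °C arrays, against 559.8, 649 and 634 on the 30 °C arrays and fell by 3.66 (adjusted p = 5.89e-07). GAT1, a GATA activator, read 72.4, 102 and 123 on the 12 °C arrays, against 457, 396 and 478 on the 30 °C arrays and fell by 2.19 (adjusted p = 2.02e-06). MEP2, the high-affinity ammonium permease and sensor, read 484, 534 and 521 on the 12 °C arrays, against 1914, 2209 and 2003 on the 30 °C arrays and fell by 1.99 (adjusted p = 3.6e-05). The groups were apart for the 3 genes.

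Of 27 nitrogen-repressed permeases and vacuolar amino acid transporters 13 fell, 4 rose and 10 did not pass (median -0.68), with 2 rising without replicate 1 at 12 °C or any 1 of the 3 replicates at 30 °C, and with the replicate block. Besides the permeases of the largest changes, the vacuolar exporter gene YPQ1, for basic amino acids, read 611, 315 and 361 on the 12 °C arrays, against 179, 143 and 137 on the 30 °C arrays and rose by 1.43 ± 0.21 (SE; adjusted p = 9.26e-05), above all 30 °C arrays. Of 19 genes of the SPS sensor of external amino acids and its permease targets 8 fell and 1 rose, and 12 fell and 0 rose under carbon limitation. MUP1, a methionine permease, was at the floor on each of the 3 arrays at 12 °C and was at least 3.73-fold lower, a call lost with a floor of 50. TAT2, the tryptophan permease, read 37.0, 25.2 and 33.2 on the 12 °C arrays, against 14.4, 12.4 and 10.4 on the 30 °C arrays and rose by 1.28 ± 0.21 (SE; adjusted p = 0.000228). Its signal is low, 1 array at 30 °C lay at the floor, and the call was lost with a floor of 50.

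Of 30 genes of TORC1, TORC2 and the retrograde pathway 10 fell, 1 rose and 19 did not pass (median -0.41). SCH9, the TORC1-driven kinase that promotes ribosome synthesis, read 72.7, 56.3 and 56.4 on the 12 °C arrays, against 158, 209 and 150.2 on the 30 °C arrays and fell by 1.48 (adjusted p = 0.000215). RTC1 and IML1, of the complexes that link amino acid supply to TORC1, fell by 1.47 and 1.19. Every 12 °C array of SCH9 lay below every 30 °C array.

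Other signalling lists had more falls than rises, by counts that depended on arrays or on length. Of 21 genes of the HOG osmosensing pathway 4 fell and 2 rose, a smaller share falling than over all genes. Between 2 and 6 of them fell when 1 nitrogen-limited array was left out. Of 23 genes of the Ras and protein kinase A pathway 9 fell and 1 rose. That count was 5, 4 and 4 without replicate 2 at 12 °C and replicates 1 and 2 at 30 °C, and 4 with the length trend removed. GPR1, the glucose-sensing receptor, fell by 0.96. Of 21 Snf1 kinase genes 9 fell and 1 rose, with 5, 4 and 5 falling without replicate 1 at 12 °C and replicates 1 and 2 at 30 °C and 2 with the length trend removed. MIG1, the glucose repressor, read 48.3, 32.9 and 27.4 on the 12 °C arrays, against 103, 97.1 and 140.4 on the 30 °C arrays and fell by 1.67 (adjusted p = 0.000183). MTH1, a corepressor of hexose transporter genes, fell by 1.44. Of 42 zinc cluster transcription factors 17 fell and 3 rose, and 9 fell with the trend removed. ASG1, of this family, fell by 1.59. Of 21 genes of the cell wall integrity pathway 7 fell and 2 rose, with 4 falling without replicate 2 at 12 °C or replicate 1 at 30 °C and 3 with the trend removed. WSC4, a wall sensor, read 229.8, 191 and 156 on the 12 °C arrays, against 437, 444 and 532 on the 30 °C arrays and fell by 1.31 (adjusted p = 0.000329).

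**Figure D4:**
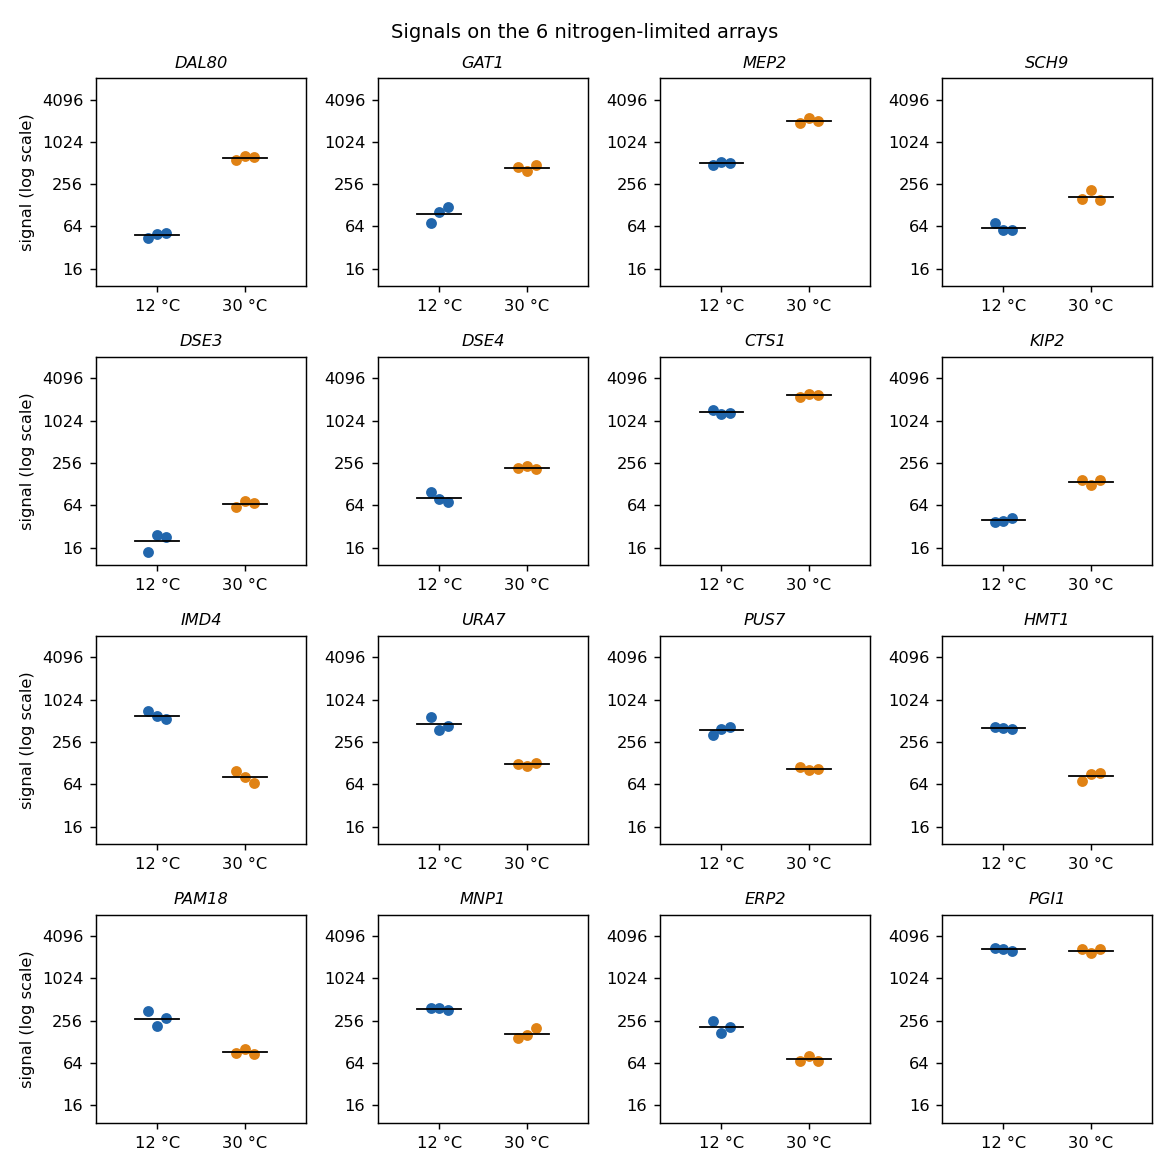
Signals of 16 genes on the 3 arrays at 12 °C (left in each panel) and the 3 at 30 °C (right), on a log scale with base 2; lines are means of log2 signals. In 15 panels the groups do not overlap, and PGI1 is a gene that stayed level.

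The temperature response under nitrogen limitation differed from that under carbon limitation for 402 genes (7.44%), tested as the difference of the log2 changes, nitrogen minus carbon. For 157 genes (2.91%) the difference was positive and for 245 (4.54%) negative. Of the genes called in both limitations, 381 rose in both, 434 fell in both, 15 rose under nitrogen and fell under carbon limitation, and 20 did the reverse. The changes had a Pearson correlation of 0.63 across genes, which are not independent replicates, and the comparisons share no arrays. The 245 genes with a negative difference had a median length of 1656 bp and the 157 with a positive one 951 bp. With the length trend removed 363 genes differed, 200 positive and 163 negative, and median scaling gave 250 positive and 180 negative. Without replicate 1 or 2 of the carbon-limited arrays at 30 °C the count was 246 or 249, and without replicate 1 or 2 of the nitrogen-limited arrays at 30 °C it was 261 or 248.

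The most negative differences were in hexose transport and in genes of nitrogen uptake and catabolism. HXT2, a hexose transporter, read 46.7, 26.6 and 31.7 on the 12 °C arrays, against 703, 669 and 716 on the 30 °C arrays. Under carbon limitation it read 537, 408 and 726 at 12 °C, against 246, 204 and 192 at 30 °C. It fell by 4.35 under nitrogen limitation and rose by 1.35 under carbon limitation, a difference of -5.70 ± 0.32 (SE; adjusted p = 1.49e-08). GAP1 read 231, 227 and 231 on the 12 °C arrays, against 3132, 3468 and 3911 on the 30 °C arrays, a log2 change of -3.92, and it rose by 0.82 under carbon limitation (difference -4.74 ± 0.25, adjusted p = 6.74e-09). The allantoate permease gene DAL5, the proline oxidase gene PUT1, DUR3, DAL80 and CPS1 had differences of -4.67, -4.52, -3.92, -3.86 and -3.74. At 12 °C their mean signals under nitrogen limitation were 17.7 to 101.3. HXT4, another hexose transporter, rose in both limitations. It read 1149, 990.3 and 1202 on the 12 °C arrays, against 684, 615 and 679 on the 30 °C arrays. Under carbon limitation it read 690.2, 1148 and 1228 at 12 °C, against 32.6, 29.5 and 29.4 at 30 °C, so the changes were 0.75 and 5.02 (difference -4.27 ± 0.28, adjusted p = 7.44e-08).

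The most positive differences were of several kinds. RGI2, a gene of respiratory growth, was at the floor on each of the 3 arrays at 12 °C under nitrogen limitation, at least 4.72-fold lower than at 30 °C, and it fell by 5.56 under carbon limitation (difference 3.32, whose size and sign the floor can set). The call under nitrogen limitation was lost with a floor of 50. HSP30 fell under both limitations, with log2 changes of -2.98 under nitrogen and -5.26 under carbon limitation (difference 2.29 ± 0.50, adjusted p = 0.0101). CYC1, cytochrome c, read 103, 126 and 67.2 on the 12 °C arrays, against 24.7, 26.7 and 34.3 on the 30 °C arrays, with no overlap. It rose by 1.75 under nitrogen limitation and fell by 0.96 under carbon limitation (difference 2.71 ± 0.44, adjusted p = 0.0012). RNR3 and TAT2 likewise rose under nitrogen and fell under carbon limitation (differences 2.31 and 2.60). NSR1, a nucleolar protein that helps process ribosomal RNA, read 1048, 818 and 649 on the 12 °C arrays, against 72.5, 73.3 and 75.2 on the 30 °C arrays and rose by 3.48, against 1.16 under carbon limitation (difference 2.32 ± 0.32, adjusted p = 0.000324).

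Differences were also found among modest changes of the lists above. WSC4 fell by 1.31 under nitrogen and rose by 1.47 under carbon limitation (difference -2.78 ± 0.32, adjusted p = 5.18e-05). HES1 changed by -2.42 and 0.08, GAT1 by -2.19 and -0.16, and SCH9 by -1.48 and -0.09, nitrogen first (adjusted p of the difference = 6.18e-05, 0.000799 and 0.0206). Of the 18 ammonium and GATA genes 7 had a negative difference, and of the 27 permeases and vacuolar transporters 9 had a negative and 2 a positive one. Of the 29 purine genes 6 had a positive difference, among them APT1 at 1.499 (log2; adjusted p = 0.00636).

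**Figure D5:**
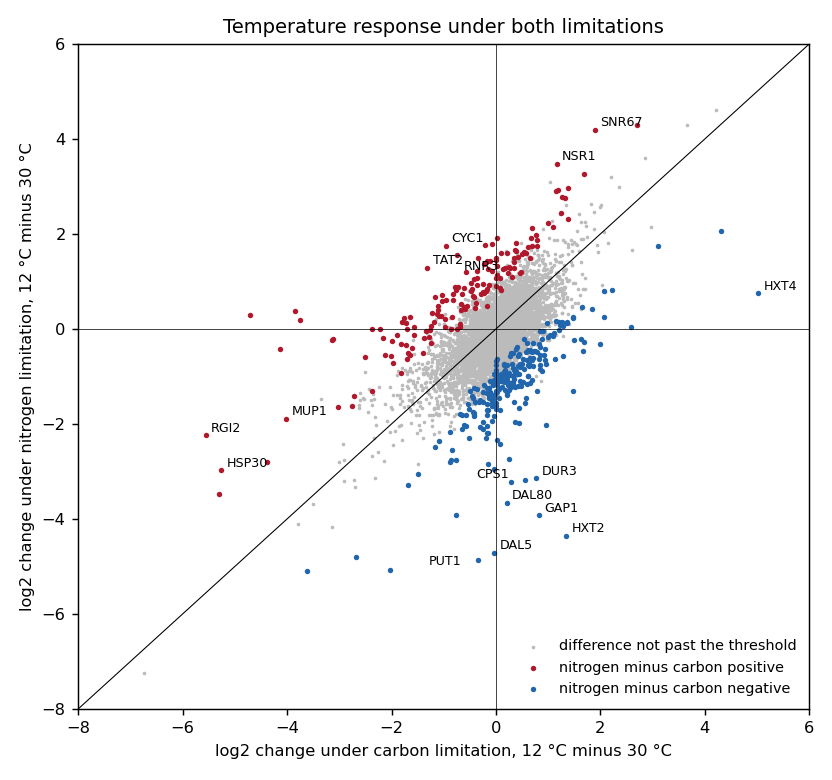
Each point is 1 of 5400 genes, with its log2 change (12 °C minus 30 °C) under carbon limitation on the x axis and under nitrogen limitation on the y axis; coloured points are the 402 genes whose changes differ, and the diagonal marks equal changes. HXT2, GAP1, DAL5 and PUT1 lie far below the diagonal and HXT4 far to its right.

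Some genes stayed level within a narrow interval. For 376 genes (6.96%) the 95% interval of the log2 change lay within 0.5 of 0, and 96 of these were among the 598 genes with a mean signal over 500. Of the dimmest of the 10 signal bins 15.9% lay within it, against 2.04% of the next bin. The floor compresses changes of such dim genes, so not all of the 376 can be called level. PGI1, the glycolytic phosphoglucose isomerase, read 2813, 2670.3 and 2476 on the 12 °C arrays, against 2687, 2346 and 2654 on the 30 °C arrays, and its groups overlapped. Its interval ran from -0.23 to 0.33. MET17, of methionine synthesis, ADK1, the adenylate kinase, COF1, cofilin, and SCS7, a sphingolipid hydroxylase, had log2 changes of 0.09, -0.07, 0.14 and 0.07. Level here means relative to the arrays' common scale: the log2 change of PGI1 was 0.05 as deposited, 0.19 under median scaling and -0.17 under quantile normalization.

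A few genes varied most among the 12 °C arrays themselves. SFM1, an arginine methyltransferase of a ribosomal protein, read 71.5, 474 and 439 on the 12 °C arrays, against 129.5, 175 and 168 on the 30 °C arrays. ORA1, an oxidoreductase, read 323, 1885 and 1548 on the 12 °C arrays, against 1292, 1814 and 1796 on the 30 °C arrays. LSO2, a protein of idle ribosomes, read 45.9, 249 and 218 on the 12 °C arrays, against 89.7, 146 and 193 on the 30 °C arrays. In each of the 3 replicate 1 at 12 °C lay far below its fellow replicates, the groups overlapped and the temperature change did not pass. ICY1 read 142, 828 and 648 on the 12 °C arrays, against 936, 1206 and 1373 on the 30 °C arrays, with the same low replicate, and its fall of 1.45 passed (adjusted p = 0.0175).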

How the data were processed

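Each of the 12 samples was 1 Affymetrix yeast array, 3 per group in 4 groups. The deposited values are linear signal intensity values that the authors made with GCOS, per the submitters' processing notes; no version or scaling setting is given in the sources used here. Trimmed mean signals of 150.0 to 150.6 on the nitrogen-limited arrays show a common scaling, so total RNA per cell is not measured. Replicates were separate cultures per the labels' protocols. Probe sets were named from the platform annotation (6504 with 1 gene, 328 with several, 2503 unlisted or controls), and each gene was read from its brightest probe set by mean log2. Signals under 12 were set to 12 and log2 was taken; genes above 12 on at least 3 arrays were tested (5400 of 5656). limma 3.58.1 in R 4.3.3 (lmFit, eBayes with a trend) fitted the 4 groups over the 12 arrays, with contrasts for each limitation and their difference, and Benjamini-Hochberg adjustment over all genes at a threshold of 0.05. The code was tested on simulated data. Other steps used python 3.11.15, numpy 2.4.6, scipy 1.17.1, pandas 2.3.3 and matplotlib 3.10.9. The number of arrays limits the precision.

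Named genes are past the threshold with arrays that do not overlap, by 6 parts of a rule: ranks 11 to 25 of change in each direction; the lowest adjusted p among 1.5- to 2-fold changes; the narrowest 95% intervals within 0.5 of 0 at a mean signal over 500; the largest differences between limitations; per list, up to 3 called members in the leading direction and 1 against it; and the largest SD at 12 °C at a mean signal over 100. As exceptions, the list part needs a call but lets the arrays overlap, and the last part and the narrowest intervals need neither a call nor separate arrays. Markers of mating type, growth and nitrogen, and a few small RNAs, were named outside the rule after their values were seen. The 56 lists, their members and the rule were chosen with earlier results of these data known. Gene lengths came from the R64 RefSeq gene table. Alternatives were the floor, the filter, the scaling, the probe set rule, the arrays fitted, the replicate block, each array left out and, chosen after seeing the data, the removal of the length trend (lowess, span 0.5). No value column was left unmapped.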

Additional observations from a re-analysis of the deposited data

Results flagged for a closer look

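For 56 of 138 genes the temperature effect differed between nitrogen and carbon limitation at an adjusted p under 0.05. These 138 are genes named in the report, apart from some markers and tRNA genes that were not counted. Over all 5400 genes the effect differed for 402 (7.44%). Some of the 138 were named because their difference or their change was large, so the higher share among them follows from how they were picked. The test was limma's, of the difference of the log2 changes, nitrogen minus carbon, adjusted over all genes. The difference was positive for 24 and negative for 32. Differences positive by over 2 on the log2 scale were those of RGI2 (3.32), CYC1 (2.71), TAT2 (2.60), NSR1 (2.32), SNR67 (2.31), RNR3 (2.31), HSP30 (2.29) and MUP1 (2.12). Smaller positive differences were those of HXT5 (1.84), IMD4 (1.75), SNZ1 (1.60), MF(ALPHA)2 (1.52), APT1 (1.499), SFK1 (1.43), TIM8 (1.31), IMD2 (1.24), NOG2 (1.21), URA7 (1.10), PAM18 (1.08), FUI1 (1.06), TRM11 (1.02), SNR76 (0.95), MNP1 (0.95) and IZH1 (0.72). Differences negative by over 2 on the log2 scale were those of HXT2 (-5.70), GAP1 (-4.74), DAL5 (-4.67), PUT1 (-4.52), HXT4 (-4.27), DUR3 (-3.92), DAL80 (-3.86), CPS1 (-3.74), MLS1 (-3.51), PUT4 (-3.15), DTR1 (-2.90), WSC4 (-2.78), HES1 (-2.51), MEP2 (-2.42) and GAT1 (-2.04). Smaller negative differences were those of RPR1 (-1.86), SNR14 (-1.64), TMA10 (-1.60), SUL1 (-1.55), SEG1 (-1.51), PDR11 (-1.45), SCH9 (-1.39), SNR45 (-1.35), POL2 (-1.33), SNR7-L (-1.31), DSE3 (-1.30), KIP2 (-1.15), IML1 (-1.13), PRY1 (-1.07), ARO10 (-0.99) and DSE4 (-0.96). AUS1, counted here by its brightest probe set (-1.36), has no settled direction, since its probe sets were called in opposite directions. Under nitrogen limitation the floor held every 12 °C array of RGI2, MUP1, FUI1, ARO10 and SNR7-L, and every 30 °C array of MF(ALPHA)2 and SNR76. It therefore limits the size of these differences, and at least for RGI2, MUP1, FUI1, ARO10 and MF(ALPHA)2 also the sign. After the floor, ARO10 did not differ between temperatures under carbon limitation. MF(ALPHA)2 averaged 6.77 ± 1.80 (SD) at 30 °C under carbon limitation, also under the floor.

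Probe sets that pair with no single gene were outside the comparisons above and were tested in the same way. Of 2443 probe sets that the annotation does not list, 1138 were above the floor, and 126 of these were higher and 305 lower at 12 °C. Of 328 probe sets that list several genes 289 were above the floor, and 67 were higher and 75 lower. The share called in either direction was 37.9% of the unlisted and 49.1% of the several-gene probe sets above the floor. It was 38.2% of the genes tested.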

How the results depend on the processing

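The 2063 calls under nitrogen limitation stayed within 1.5 times under all alternatives: 1627 with a floor of 50, 2115 with log2 of signal plus 12, 1474 (725 higher, 749 lower) with a mean log2 signal above that of 50, 2013 with quantile normalization, 2047 with median scaling, 1831 with only the nitrogen-limited arrays and 1897 (951 higher, 946 lower, 1660 shared) with the length trend removed. The genes called changed more than these totals: of the 2063, 1723 were shared under quantile normalization and 1765 under median scaling. Leaving out 1 array gave 1624 to 2147 calls under nitrogen limitation, with 1754 shared without replicate 1 at 12 °C. Under carbon limitation it gave 921 to 1690 calls, against 1386, and for the difference between limitations 246 to 480, against 402. The difference split into 236 positive and 227 negative under quantile normalization. The replicate numbers did not pair the arrays: deviations of same-numbered arrays at 12 °C and 30 °C correlated at 0.18, -0.14 and -0.12. With a replicate block 1982 genes were called under nitrogen limitation, 1304 under carbon limitation and 344 for the difference. Of 260 genes past the threshold that the rule names, 197 kept their direction and call under each of the 24 settings that tested them. Another 63 lost the call under at least 1, and 0 reversed. A setting that dropped a gene was not counted against it. With a floor of 50 only 4161 genes were tested, and with a mean log2 signal above that of 50 only 3692. Without probe sets that share probes 5197 were tested. Other list counts that moved by over 1.5 times included, by number falling under quantile normalization, Mediator 3, SAGA 5, spliceosome 4, mRNA decay 4, septins and polarity 5 and Snf1 4. With median scaling COPII and COPI had 1 falling, thiol redox 1, SWI/SNF and RSC 2 and vacuolar sorting 7, and RNA polymerase II had 6 rising and GPI anchor 5. With the stricter signal filter fewer members were tested: 5 of 10 fell in the SPS list, 6 of 18 in TORC1, 4 of 8 in Rsp5, 6 of 15 in flippases, 7 of 27 in the kinetochore list and 7 of 21 among zinc cluster factors. The causes of the other moves were not tested. Signal near the floor limits the dim genes.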
